A study of Mus musculus with 39 samples.

Results

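Gliosis differed widely among 9-month-old female mice of the same APP/Tau genotype, and the libraries described here are the hippocampi at both ends of that range. Members were chosen by Gfap: the 9 APP/Tau hippocampal libraries, naive and trained together, were ranked by the share of their counts that fell on this gene, in CPM (the count divided by the column total, times 1e+06). The 4 highest form the high-gliosis group (high group), the 4 lowest the low-gliosis group (low group), and the library in the middle of the ranking belongs to neither, so that 8 of the 39 libraries of the series are members. Because Gfap in these very libraries chose the groups, differences in gene levels between them in the hippocampus are given as descriptions with no test.

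High-gliosis APP/Tau mice were naive 5, trained 1, trained 3 and trained 4; low-gliosis APP/Tau mice were naive 2, naive 4, naive 3 and trained 2, and values of a group are given in that order throughout, which is the falling order of Gfap. APP/Tau mice carried a human APP transgene bearing the Swedish and Indiana mutations (APPSw,Ind, J9 line) and a human tau transgene bearing P301S (PS19 line), from crosses of heterozygous mice on a C57BL/6 background. The 11 control hippocampi (5 naive, 6 trained) were WT for both transgenes. All mice, controls included, carried CaMKIIαCre, which is active in forebrain glutamatergic neurons after birth, and 1 copy of RiboTag, a Cre-dependent HA tag on a ribosomal protein. Libraries were made from the input lysate before any pull-down of tagged ribosomes, so RNA of every cell type of the tissue is present. Trained mice had undergone fear conditioning, in which a tone was paired with a shock to the feet, 1 h before death. As background on these models, the J9 transgene runs from a PDGF promoter and the PS19 transgene from the mouse prion protein promoter, so neither is confined to the cells that carry active Cre.

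Gliosis is the response of astrocytes and microglia to injury, plaques and dying neurons. Astrocytes enlarge and fill with intermediate filaments of GFAP and vimentin, a response that cytokines of the interleukin-6 family drive through gp130 receptors and the transcription factor STAT3. Microglia that gather at amyloid plaques sense lipids and lipoproteins through TREM2 and its adaptor TYROBP, lower part of their resting surface receptors and raise lysosomal, lipid-handling and phagocytic genes. Complement proteins, made by both cell types, tag synapses for removal.

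Gfap ran at 5155, 4872, 3869 and 1790 CPM in the high-gliosis libraries and at 1301, 988, 916 and 675 CPM in the low-gliosis libraries. The middle library, APP/Tau naive 1, had 1634 CPM, so the boundary members are trained 4 at 1790 CPM just inside the high group and naive 2 at 1301 CPM just inside the low group. Controls ran from 307 to 451 CPM with a median of 390.0, and every APP/Tau library lay above every control. The ranking has a wide step between trained 3 and trained 4, and trained 4 lies nearer to the middle library than to the 3 above it.

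**Figure D1:**
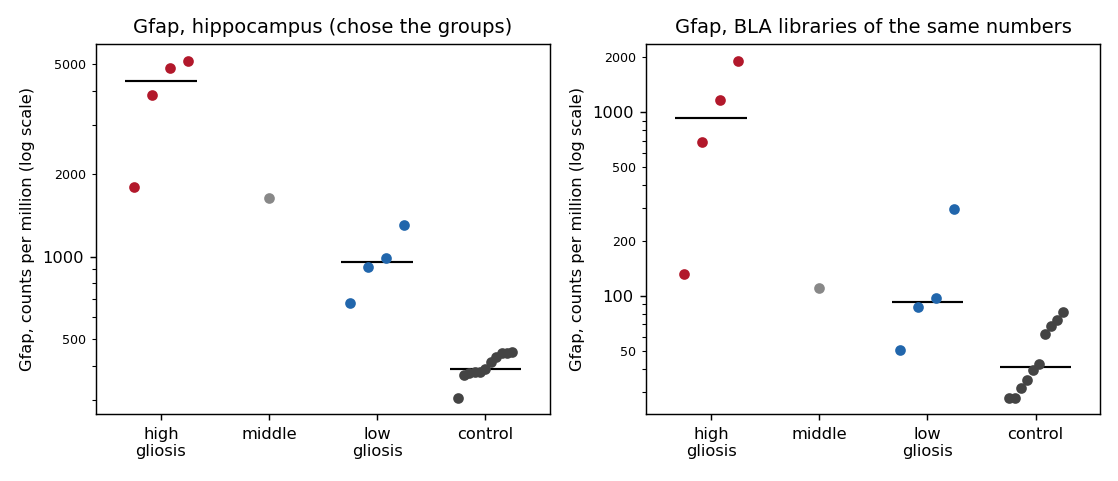
Gfap in CPM of the column total, on a log axis, for each hippocampal library (left) and for the BLA libraries that carry the same numbers (right), by gliosis group of the hippocampus; points are libraries and bars are medians. In the hippocampus the high-gliosis group spans 1790 to 5155 CPM by construction, with 1 member near the middle library, and in the BLA the same 4 numbers span 132 to 1900 CPM against 50.6 to 296 CPM for the low-gliosis numbers.

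Totals overlapped between the groups, at 105 to 122 M counts (M, 1e+06 counts) in the high-gliosis and 94.2 to 111 M in the low-gliosis libraries, beside 92.1 to 128 M in controls. Mitochondrially encoded genes took 3.06 to 3.43% of the counts in the high-gliosis and 3.18 to 3.76% in the low-gliosis libraries. Training was unevenly spread, with 3 of 4 high-gliosis mice trained against 1 of 4 low-gliosis mice; Fisher's exact test (2-sided) of that split gave p = 0.486, which with 4 against 4 does not show that training was balanced. Over the 36 pairs of APP/Tau libraries the least chi-square per gene was 22.8, and no pair looked like the same library. Hippocampal tissue was present in every library: Prox1 of dentate granule cells ran from 66.7 to 144 CPM and Slc17a7 from 711 to 1423 CPM over the 8 members. Choroid plexus adjoins the hippocampus, and its marker Ttr varied in both groups, at 482, 625, 1208 and 265 CPM in the high-gliosis and 725, 223, 1336 and 592 CPM in the low-gliosis libraries.

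Over 25790 genes other than Gfap, 1585 (6.15%) were higher without overlap, meaning that all 4 high-gliosis libraries lay above all 4 low-gliosis ones, and 1436 (5.57%) were lower without overlap. With the further demand of at least a 2-fold difference, 484 genes (1.88%) were higher and 125 (0.485%) lower. Values below are CPM after TMM scaling, and log2 differences are the mean log2 CPM of the high-gliosis group minus that of the low-gliosis group with the standard error over libraries; the median over all genes was -0.01. Against the 11 controls, 1264 genes (4.9%) were higher and 701 (2.72%) lower without overlap in the high-gliosis group. The same counts for the low-gliosis group were 147 (0.57%) and 53 (0.206%). Trained 4 decides much of these counts: without it 3849 genes (14.9%) were higher and 3997 (15.5%) lower against the low-gliosis libraries, and 3136 (12.2%) and 2920 (11.3%) against controls. Dropping any library makes overlap rarer by construction, but dropping any of the other high-gliosis libraries gave at most 1971 higher and 1881 lower genes. Counts of list members between the groups are to be read beside 6.15% higher and 5.57% lower. Those given below without trained 4 are to be read beside 14.9% and 15.5%. Trained 4 met the rule, yet its Gfap CPM lay nearer to the low-gliosis mean than to that of the 3 other high-gliosis libraries. Over 38 lists of glial, immune, neuronal and other genes, its mean level likewise lay nearer to the low-gliosis mean in 32. The middle library did so in 28. Nearer does not mean within the low-gliosis range. For complement genes, trained 4 lay 0.88 above the control mean on the log2 scale, against at most 0.74 in a low-gliosis library. In bulk RNA, more cells of a type and more RNA per cell cannot be told apart.

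**Figure D2:**
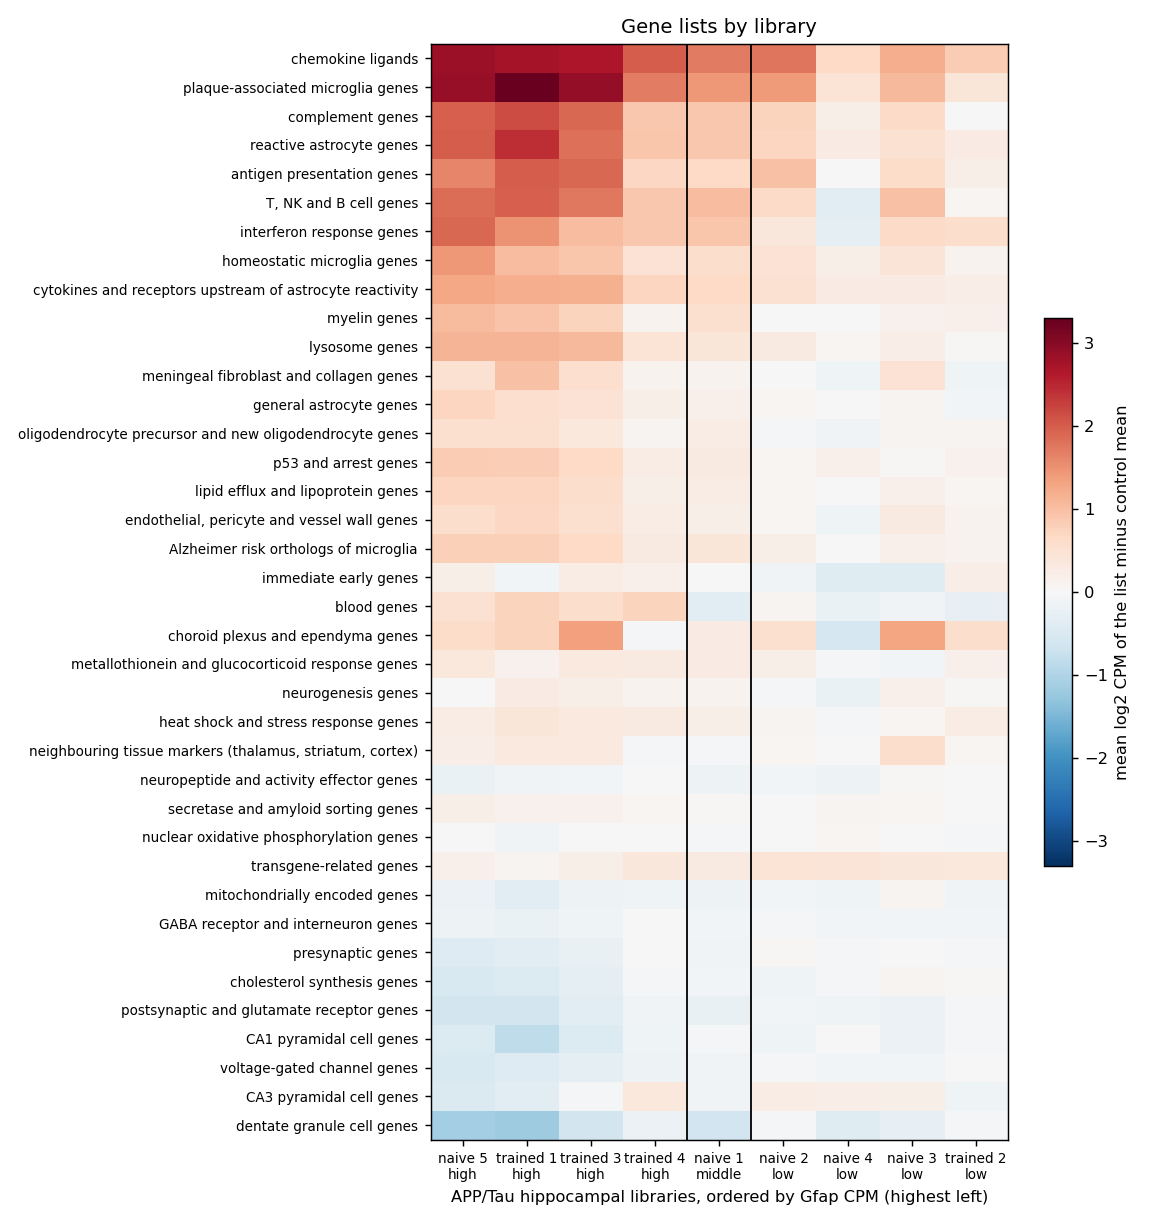
Mean log2 CPM of each of 38 gene lists in each APP/Tau hippocampal library, minus the mean over control hippocampi (colour), with libraries ordered by Gfap from left to right and black lines around the middle library. In the plaque-associated microglia, complement and reactive astrocyte lists the 3 libraries with most Gfap lie above all others. In 32 of 38 lists trained 4 lies nearer to the low-gliosis mean than to the mean of those 3.

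Of 22 cytokines, receptors and signalling genes upstream of astrocyte reactivity, all of which passed the count filter, 9 were higher without overlap and 0 lower, with a median log2 difference of 0.61; 15 were higher and 1 lower without trained 4, at a median of 0.72. Osmr, the receptor subunit for oncostatin M that pairs with gp130, stood at 44.4, 49.8, 32.4 and 16.8 CPM in the high-gliosis libraries and 12.2, 6.86, 8.11 and 8.97 CPM in the low-gliosis libraries. Its lowest, median and highest control values were 3.48, 5.07 and 5.82 CPM, so that both APP/Tau groups lay above all controls. The log2 difference of Osmr between the groups was 1.90 ± 0.39. Stat3, the transcription factor of this pathway, was at 90.3, 94.5, 86.2 and 61.2 CPM in the high group against 49.9, 46.3, 49.8 and 53.1 CPM in the low group, and here the low-gliosis libraries overlapped the controls, which reached 49.8 CPM.

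Socs3, the feedback inhibitor that STAT3 itself switches on, was at 8.14, 14.8, 6.57 and 3.28 CPM in the high-gliosis and 2.75, 2.46, 2.57 and 2.15 CPM in the low-gliosis libraries, and controls ran from 0.899 to 1.76 CPM. Socs3 was highest in trained 1, and again both groups lay above all controls. Il1b, an inflammatory cytokine of microglia, was low everywhere, at 0.560, 1.39, 1.10 and 0.478 CPM in the high-gliosis libraries and 0.379, 0.128, 0.345 and 0.113 CPM in the low-gliosis libraries. The cytokines Il6, Lif, Osm, Cntf and Tnf overlapped between the groups, with log2 differences of 0.54, 0.67, 1.56, 1.99 and 0.06. The receptors Il6ra (0.54), Tnfrsf1a (1.31) and Tgfbr1 (0.54) were higher without overlap.

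The promoters of Socs3, a STAT3 target, and of Cxcl10 and Ifit3, both interferon targets, are shown because they stand for the cytokine and interferon genes whose values are given here. Each is the RefSeq window from 250 bases before to 50 bases after the gene's start in build GRCm38.p6, written 5′ to 3′ in the gene's direction, at chr11:117969317-117969616, minus strand for Socs3, chr5:92348840-92349139, minus strand for Cxcl10 and chr19:34583279-34583578, plus strand for Ifit3. Capitals mark matches to TTCNNNGAA, the spaced palindrome of STAT dimers, or to TTTC, any 2 bases and TTTC again, the core of the interferon-stimulated response element, on either strand.
Socs3: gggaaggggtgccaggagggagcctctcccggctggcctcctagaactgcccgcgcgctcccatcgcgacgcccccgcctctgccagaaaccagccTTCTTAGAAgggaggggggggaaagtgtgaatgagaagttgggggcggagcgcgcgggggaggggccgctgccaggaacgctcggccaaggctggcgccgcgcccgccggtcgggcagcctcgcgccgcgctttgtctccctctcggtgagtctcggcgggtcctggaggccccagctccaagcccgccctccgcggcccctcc
Cxcl10: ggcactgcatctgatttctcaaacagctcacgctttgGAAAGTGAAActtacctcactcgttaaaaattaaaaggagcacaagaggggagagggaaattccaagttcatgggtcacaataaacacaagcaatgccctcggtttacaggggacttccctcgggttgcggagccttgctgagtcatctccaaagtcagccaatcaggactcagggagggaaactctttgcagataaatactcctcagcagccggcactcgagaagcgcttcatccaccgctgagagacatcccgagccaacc
Ifit3: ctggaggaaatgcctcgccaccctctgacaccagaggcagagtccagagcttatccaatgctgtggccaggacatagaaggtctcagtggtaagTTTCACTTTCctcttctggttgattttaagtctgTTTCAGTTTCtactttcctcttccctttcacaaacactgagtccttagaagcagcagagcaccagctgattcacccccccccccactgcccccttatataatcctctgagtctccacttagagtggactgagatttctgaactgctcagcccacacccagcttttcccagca
Socs3 carried 1 STAT-type match that begins 154 bases before the start. Cxcl10 carried 1 interferon-type match on the opposite strand, 213 bases before the start, and Ifit3 carried a pair, 156 and 122 bases before it. Among the 16936 genes with a count in these libraries and a RefSeq promoter, 8.56% held TTCNNNGAA and 3.76% held the interferon-type motif. Among the 331 matched genes that were higher without overlap and at least 2-fold, the shares were 11.2% for the STAT-type and 9.06% for the interferon-type motif. Among the 67 matched genes that were lower by the same rule, they were 8.96% and 5.97%. Of 9 matched interferon response genes that were higher, 6 held the interferon-type motif. That list was made of interferon response genes, and no share was taken for its members that were not higher. These are matches of letters in a short window, not sites of binding.

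Reactive astrocyte genes were higher along with Gfap. Of 30 such genes, 17 were higher without overlap and none lower, at a median of 1.41, beside 6.15% and 5.57% of all genes; 25 were higher without trained 4. Vim, the filament protein that assembles with GFAP, stood at 279, 424, 227 and 65.4 CPM in the high-gliosis and 55.2, 39.0, 51.2 and 41.9 CPM in the low-gliosis libraries, with controls at 27.7, 31.7 and 40.1 CPM (lowest, median, highest). Trained 1 held the most Vim, and trained 4 was close to the highest low-gliosis library. Serpina3n, a secreted inhibitor of serine proteases, was at 294, 359, 219 and 98.3 CPM in the high group against 72.7, 62.9, 49.3 and 39.2 CPM in the low group, but controls reached 121 CPM, above trained 4 and above every low-gliosis library.

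Cd44, the hyaluronan receptor, was at 32.6, 39.8, 24.4 and 7.76 CPM in the high-gliosis libraries and 6.37, 4.14, 4.91 and 2.82 CPM in the low-gliosis libraries, a log2 difference of 2.34 ± 0.58. Timp1, an inhibitor of matrix metalloproteinases, was at 2.50, 6.60, 2.47 and 0.981 CPM in the high group against 0.452, 0.289, 0.363 and 0.254 CPM in the low group. Lcn2, a secreted iron-siderophore carrier, was at 3.74, 7.18, 3.74 and 0.504 CPM in the high group against 0.226, 0.235, 0.0725 and 0.235 CPM in the low group, and the value of trained 4 lay within the control range, which reached 0.532 CPM. Both genes were below 0.5 CPM in every low-gliosis library and highest in the 3 libraries with most Gfap. Ptgs2 (-0.65) and Synm (-0.12) were the members of this list with a difference below 0, and both overlapped.

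General astrocyte genes, which are on in resting astrocytes too, differed by less. Of 16, 10 were higher without overlap and none lower, at a median of 0.51; 12 were higher without trained 4. Aqp4, the water channel of astrocyte endfeet, was at 518, 474, 399 and 240.5 CPM in the high-gliosis and 205, 177, 194 and 182 CPM in the low-gliosis libraries, where controls ran from 143 to 200.3 CPM. Aldh1l1, a folate enzyme used as a pan-astrocyte marker, had a log2 difference of 0.70 ± 0.11, and Mlc1, a membrane protein of endfeet, one of 0.84 ± 0.21. The glutamate transporters split: Slc1a3 was higher without overlap (0.41), while Slc1a2 overlapped (0.15). No gene of this list separated the low-gliosis libraries from the controls, and the median difference from controls was 0.48 for the high-gliosis and 0.01 for the low-gliosis libraries.

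**Figure D3:**
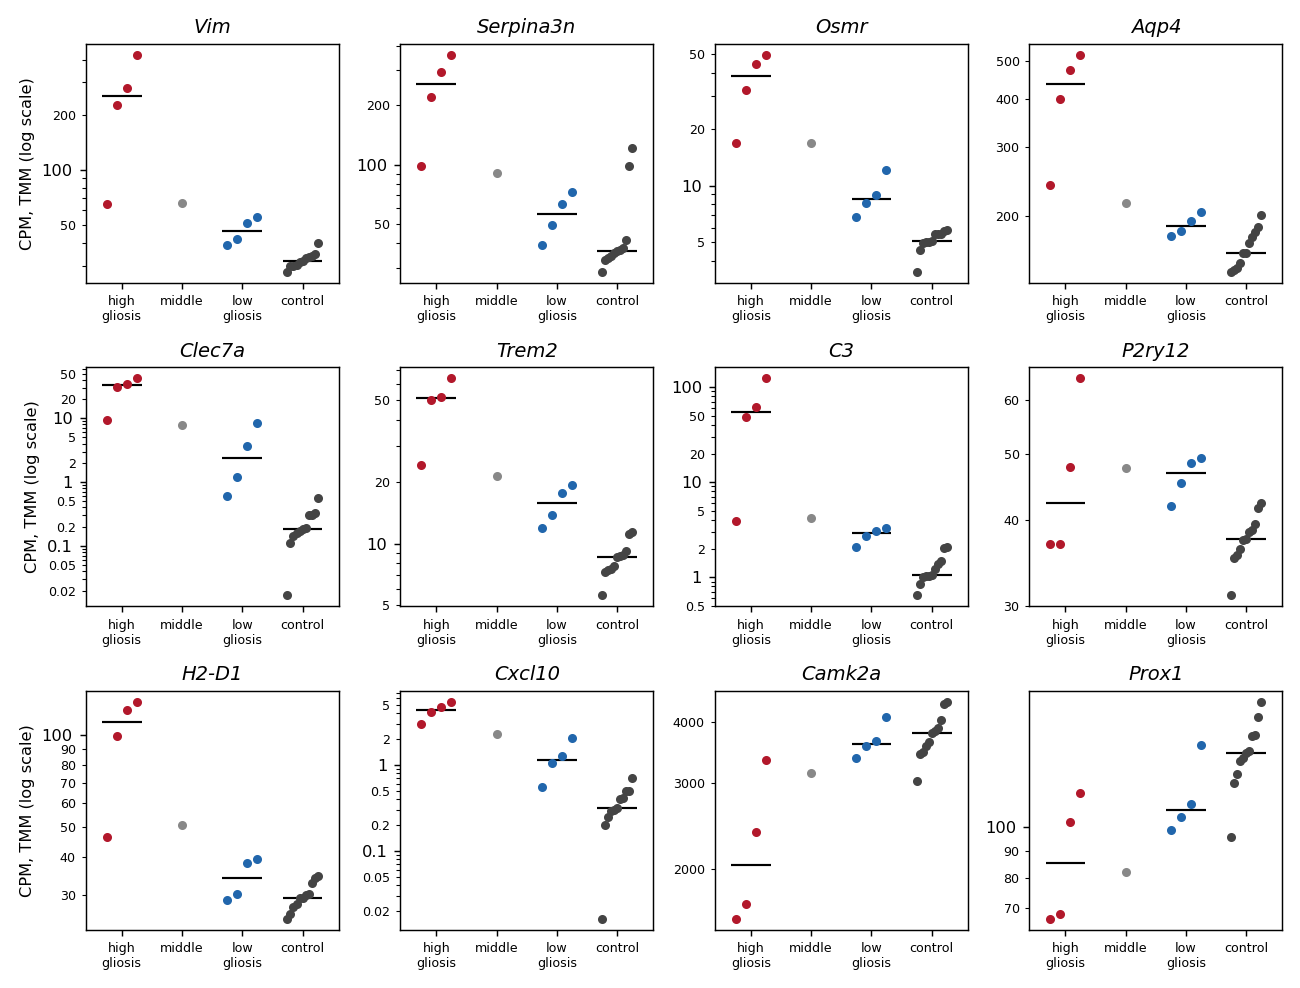
CPM after TMM scaling, on log axes, of 12 genes in each hippocampal library; points are libraries, bars are medians, and groups are high gliosis, the middle library, low gliosis and controls. The medians of Vim, Osmr, Clec7a, Trem2, C3, H2-D1 and Cxcl10 step down over the 4 groups, but single libraries do not always follow. The middle library lies above trained 4 in Vim, Osmr, C3 and H2-D1, and below the highest low-gliosis library in Clec7a. Low-gliosis libraries reach into the control range in Vim, H2-D1 and Cxcl10. P2ry12 overlaps between the high-gliosis and low-gliosis groups. Camk2a has its lowest median in the high-gliosis group, with trained 4 close to the low-gliosis libraries.

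Plaque-associated microglia genes held the most members without overlap of any list: of 28, 21 were higher without overlap and none lower, at a median of 1.59, and 25 were higher without trained 4. Of the same genes, 22 separated the high-gliosis group from controls and 8 the low-gliosis group. Clec7a, a receptor for fungal glucans and a marker of plaque microglia, stood at 31.2, 42.1, 34.0 and 9.53 CPM in the high-gliosis and 8.37, 0.599, 3.63 and 1.21 CPM in the low-gliosis libraries. Controls did not exceed 0.555 CPM, below every APP/Tau library. Trem2 was at 64.0, 50.1, 52.0 and 24.1 CPM in the high group against 19.4, 13.7, 17.7 and 11.9 CPM in the low group, and its adaptor Tyrobp at 47.2, 50.1, 42.6 and 22.8 CPM in the high group against 16.5, 11.1, 14.9 and 8.84 CPM in the low group. In both, trained 4 lay close to the low-gliosis library naive 2, and both groups lay above all controls.

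Spp1, the matrix protein osteopontin, was at 41.0, 142, 96.0 and 10.8 CPM in the high-gliosis libraries and 9.48, 1.94, 5.51 and 2.11 CPM in the low-gliosis libraries. Ctse, an aspartic protease, was at 7.02, 10.5, 0.622 and 1.59 CPM in the high group against 0.379, 0.0642, 0.127 and 0.0847 CPM in the low group, and here trained 3 was the lowest high-gliosis library. Itgax, the integrin of dendritic cells and activated microglia, was at 23.99, 51.2, 44.0 and 10.3 CPM in the high group against 11.1, 1.09, 3.93 and 1.23 CPM in the low group, and overlapped because naive 2 exceeded trained 4. Cst7, a cystatin, overlapped in the same way, at 20.5, 12.0, 19.1 and 2.80 CPM in the high group against 4.98, 0.396, 1.94 and 0.424 CPM in the low group. Apoe, the lipoprotein of both glial types, was at 4888, 5082, 3775 and 2138 CPM in the high group against 1867, 1824, 1962 and 1597 CPM in the low group, while the highest control had 1862 CPM. Apoe was above all controls in the high-gliosis group and overlapped them in the low-gliosis group.

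Of 18 homeostatic microglia genes, 5 were higher without overlap (Ctss, Aif1, Cx3cr1 and Csf1r among them) and none lower, at a median of 0.67. A difference above 0 was held by 17 of the 18, all but P2ry12. Without trained 4, 11 were higher. Ctss, a lysosomal protease, was at 312, 295, 248 and 131 CPM in the high-gliosis and 103, 72.2, 90.0 and 61.9 CPM in the low-gliosis libraries, and Csf1r, the receptor on which microglia depend for survival, had a log2 difference of 0.82. The resting-state receptor P2ry12 was at 64.4, 47.8, 36.9 and 36.9 CPM in the high group against 45.3, 49.4, 48.5 and 42.0 CPM in the low group, with a log2 difference of -0.03 ± 0.20. Tmem119, a further resting marker, was at 38.0, 20.2, 20.9 and 25.5 CPM in the high group against 24.5, 23.7, 22.2 and 22.8 CPM in the low group, a difference of 0.12 ± 0.21. P2ry12 and Tmem119 were both highest in naive 5, the library with most Gfap, and the remaining high-gliosis libraries lay within or near the low-gliosis range. Cd22, an inhibitory sialic acid receptor known from B cells and aged microglia, was among the 8 largest higher differences, at 6.89, 10.97, 11.5 and 2.44 CPM in the high group against 1.31, 0.278, 1.30 and 0.282 CPM in the low group.

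Complement genes were higher in 10 of 17 cases and lower in none, at a median of 1.495, and 15 were higher without trained 4. C1qa, a chain of the initiating C1q complex, stood at 264, 228, 211 and 91.7 CPM in the high-gliosis and 65.1, 40.7, 55.9 and 34.0 CPM in the low-gliosis libraries, and C4b at 479, 468, 360.2 and 134 CPM in the high group against 97.7, 84.8, 75.6 and 63.2 CPM in the low group. Controls reached 39.6 CPM of C1qa and 48.8 CPM of C4b. For C4b both groups lay above all controls, and for C1qa the lowest low-gliosis library, trained 2, lay within them. C3, the central component, was spread widely within the high-gliosis group, at 62.1, 124, 48.4 and 3.93 CPM, against 3.08, 2.10, 3.32 and 2.69 CPM in the low-gliosis libraries. Trained 4 held little more C3 than the low-gliosis libraries and less than the middle library, which had 4.22 CPM. The receptors C3ar1 (2.14 ± 0.46) and C5ar1 (2.07 ± 0.76) were also higher without overlap, whereas the complement inhibitor Cd55 overlapped at -0.36.

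Of 16 antigen presentation genes, 6 were higher without overlap and none lower, at a median of 1.18; all of them (H2-D1, H2-K1, B2m, Psmb9, Tap1 and Tap2) belong to the class I pathway, which presents peptides made inside the cell, and 10 of 16 were higher without trained 4. H2-D1 stood at 121, 129, 99.3 and 46.6 CPM in the high-gliosis and 39.3, 30.2, 38.1 and 29.1 CPM in the low-gliosis libraries. The class II genes overlapped with H2-Aa at 2.12 and H2-Ab1 at 1.78 on the log2 scale: Cd74, the class II invariant chain, was at 19.2, 71.9, 74.6 and 10.99 CPM in the high group against 27.2, 2.74, 8.64 and 4.51 CPM in the low group. Cd74 was high in naive 2 of the low-gliosis group, above naive 5 and trained 4 of the high-gliosis group.

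Of 24 interferon response genes, 11 were higher without overlap and none lower, at a median of 0.93, and 15 were higher without trained 4. Ifit3, whose promoter is printed above, was at 12.8, 8.42, 7.44 and 7.14 CPM in the high-gliosis and 5.76, 4.32, 5.89 and 6.04 CPM in the low-gliosis libraries, both above all controls, which reached 4.19 CPM. Bst2, the antiviral tetherin, had a log2 difference of 1.25 ± 0.32 and Ifitm3, a membrane protein that blocks viral entry, one of 1.36 ± 0.39. Chemokine ligands were higher in 10 of 20 cases and lower in 1, Ccl25, at a median of 1.67, and in 13 and 1 without trained 4. Cxcl10, the interferon-induced attractant of T cells, was at 5.47, 4.20, 4.70 and 3.03 CPM in the high group against 1.26, 0.556, 2.05 and 1.05 CPM in the low group, with no control above 0.698 CPM. In Cxcl10 trained 4 stood clear of the low-gliosis libraries, as the 3 other high-gliosis libraries did. Cxcl5, an attractant of neutrophils, was at 50.9, 30.3, 23.9 and 4.79 CPM in the high group against 4.14, 2.60, 1.18 and 1.49 CPM in the low group.

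Genes of lymphocytes and blood leukocytes were mostly below 1 CPM. Of 19 T, NK and B cell genes, 14 passed the count filter (Cd3d, Gzmb, Prf1, Ncr1 and Ms4a1 did not); 3 were higher without overlap and none lower, and 6 were higher without trained 4. Cd8a of cytotoxic T cells was at 0.280, 0.382, 0.441 and 0.174 CPM in the high-gliosis and 0.0361, 0, 0.145 and 0.0377 CPM in the low-gliosis libraries, but controls reached 0.350 CPM. Cd3g was at 0.253, 0.260, 0.252 and 0.0347 CPM in the high group against 0.00903, 0, 0.0181 and 0 CPM in the low group, and Ly9, an adhesion receptor of lymphocytes, at 10.8, 10.1, 8.92 and 2.62 CPM in the high group against 1.89, 0.299, 1.29 and 0.621 CPM in the low group. The pan-T-cell gene Cd3e overlapped, and Ly9 made most of the list's sum in the 3 libraries with most Gfap. Summed over the list, these genes made 7.02 to 17.6 CPM in the high-gliosis libraries, 3.80 to 6.39 CPM in the low-gliosis libraries and 2.84 to 4.85 CPM in controls. Of 9 blood genes 8 passed the filter and 2 were higher, the neutrophil genes S100a8 and S100a9, and the haemoglobin gene Hbb-bs overlapped at 0.19; how far blood in the tissue takes part in these small counts was not tested.

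Lysosome genes were higher without overlap in 16 of 26 cases and lower in none, at a median of 0.56, and 22 were higher and 1 lower without trained 4. Atp6v0d2, a subunit of the proton pump known from osteoclasts, came first among the 8 largest higher differences: it was at 1.75, 5.73, 5.63 and 0.174 CPM in the high-gliosis libraries, at 0.0361 CPM in naive 2 and at 0 in the other low-gliosis libraries, so no fold is given. Of the 26 genes, 25 had a difference above 0. The cathepsins Ctsh (1.52 ± 0.38) and Ctsc (1.08 ± 0.23) were higher without overlap. Grn, progranulin, was at 135, 107, 106 and 78.4 CPM in the high group against 66.0, 51.6, 60.0 and 45.4 CPM in the low group. Of 16 lipid efflux and lipoprotein genes, 6 were higher and 2 lower (12 and 2 without trained 4): Clu, the lipoprotein clusterin, was at 1827, 1756, 1719.7 and 942 CPM in the high group against 923, 841, 863 and 783 CPM in the low group, and Soat1, which esterifies cholesterol for storage, had a difference of 0.72 ± 0.17. In Clu trained 4 lay just above naive 2, far below the 3 other high-gliosis libraries. Vldlr, a lipoprotein receptor, was among the lower genes (-0.17).

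Of 21 cholesterol synthesis genes, 3 were lower without overlap (Stard4, Nsdhl and Lss) and 1 higher (Ebp), with a median of -0.31; 15 were lower without trained 4. Stard4, a carrier that moves cholesterol between membranes, stood at 14.5, 16.4, 15.97 and 25.2 CPM in the high-gliosis and 26.4, 27.9, 32.8 and 29.2 CPM in the low-gliosis libraries. Lss, lanosterol synthase, was at 20.9, 23.4, 23.2 and 21.2 CPM in the high group against 24.2, 26.4, 30.7 and 28.8 CPM in the low group, and its 4 high-gliosis values lay below every control. In Stard4 trained 4 lay just under the low-gliosis range. Against controls, the median of this list was -0.37 in the high-gliosis and -0.01 in the low-gliosis libraries.

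Myelin genes depended on the boundary library. Of 18, 4 were higher without overlap (Gsn, Cldn11, Fa2h and Car2), at a median of 0.57, but all 18 were higher without trained 4, at a median of 0.78. Mbp, myelin basic protein, stood at 3897, 3581, 3123 and 2196 CPM in the high-gliosis and 1996, 1980.0, 2128 and 2293 CPM in the low-gliosis libraries, against controls of 1555, 1956 and 2549 CPM (lowest, median, highest). Trained 4 lay inside the low-gliosis range and the 3 other high-gliosis libraries lay above all controls. Of 11 genes of oligodendrocyte precursors and new oligodendrocytes, 2 were higher (Olig2 and Gpr17) and 1 lower (Tnr), and 7 were higher and 1 lower without trained 4. Among 20 vessel genes 4 were higher, led by the leukocyte adhesion molecule Icam1 at 11.1, 13.6, 9.49 and 4.85 CPM in the high group against 3.92, 2.12, 4.70 and 2.55 CPM in the low group, and 14 without trained 4. All 12 meningeal and all 13 choroid plexus and ependyma genes overlapped, and 4 and 3 were higher without trained 4.

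Most neuronal lists had medians below 0. In most of the members printed below, trained 4 lay nearer to the low-gliosis values than the other high-gliosis libraries did. All 14 dentate granule cell genes had a difference below 0, at a median of -0.58, yet all overlapped; 8 were lower without trained 4, at a median of -0.80. Prox1, the transcription factor that defines granule cells, stood at 66.7, 68.3, 102 and 116 CPM in the high-gliosis and 111, 98.7, 105 and 144 CPM in the low-gliosis libraries, with controls at 95.7, 139 and 174 CPM (lowest, median, highest). Calb1, the calcium buffer calbindin, was at 68.6, 54.4, 75.4 and 123 CPM in the high group against 122, 89.0, 125 and 123 CPM in the low group. In Calb1 trained 4 lay within the low-gliosis range, in which naive 4 stood below the others. The 10 CA1 genes were all below 0 and all overlapped (median -0.34; 5 lower without trained 4). Of 10 CA3 genes 9 were below 0, and Fmo1 was higher without overlap at 0.45 (median -0.35; 5 lower without trained 4).

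Of 26 postsynaptic and glutamate receptor genes, 3 were lower without overlap (Camk2a and Homer2 among them) and 1 higher (Grik1), at a median of -0.33; 23 were lower without trained 4. Camk2a, the synaptic kinase whose promoter drives Cre in these mice, stood at 1694, 1578, 2378 and 3351 CPM in the high-gliosis and 4094, 3569, 3664 and 3386 CPM in the low-gliosis libraries. Trained 4 lay just below trained 2, the lowest of the low-gliosis group. Grik1, a kainate receptor subunit, was at 9.26, 9.96, 7.59 and 7.93 CPM in the high group against 6.00, 5.99, 6.27 and 6.89 CPM in the low group, and both groups lay below all controls, which ran from 12.3 to 16.2 CPM. Of 21 presynaptic genes, 3 were lower (Unc13a and Pclo among them) and 0 higher, and 14 were lower without trained 4. Pclo, a scaffold of the active zone, was at 181, 237, 228 and 267 CPM in the high group against 323, 286, 291 and 295 CPM in the low group.

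Among the lists, voltage-gated channels held the most members lower without overlap: 7 of 24 were lower without overlap and none higher, at a median of -0.34, and 15 were lower and 1 higher without trained 4. Kcnq3, a subunit of the M-current, stood at 163, 149.7, 198 and 226 CPM in the high-gliosis and 275, 249, 265 and 287 CPM in the low-gliosis libraries, and all 4 high-gliosis values lay below every control. Cacna1e, an R-type calcium channel, was at 197, 236, 279 and 353 CPM in the high group against 402, 359, 364 and 416 CPM in the low group. In both channels trained 4 lay nearest to the low-gliosis libraries. Among 20 GABA receptor and interneuron genes, 3 receptor subunits were lower (Gabra4 and Gabrb2 among them), and 3 interneuron genes were higher (Pvalb, Reln and Gad2), while Gad1 (0.12) and Slc32a1 (0.18) overlapped; 5 were higher and 9 lower without trained 4. Pvalb, the calcium buffer of fast-spiking interneurons, was at 38.9, 38.9, 36.9 and 27.6 CPM in the high group against 26.7, 26.2, 25.1 and 23.0 CPM in the low group. In these bulk samples the summed level of the 28 plaque-associated microglia genes ran at 6481 to 11986 CPM in the high-gliosis libraries, 5076 to 5865 CPM in the low-gliosis libraries and 4762 to 5231 CPM in controls, and the part of such shifts in total RNA in the neuronal values was not tested.

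Training bears on activity genes, since 3 of 4 high-gliosis but 1 of 4 low-gliosis mice were trained. Of 22 immediate early genes, 2 were higher without overlap (Fos and Maff) and none lower, at a median of 0.22. With training as a term the median of this list was 0.11. Without trained 4, 3 were higher, beside 14.9% of all genes. Fos, the classical marker of recent neuronal activity, stood at 25.8, 24.5, 31.3 and 23.1 CPM in the high-gliosis and 13.5, 7.82, 8.51 and 19.8 CPM in the low-gliosis libraries, beside controls of 5.62 to 27.7 CPM. All of these but trained 3 lay inside the control range. Its log2 difference was 1.17 ± 0.33, and 0.91 with training as a term. Maff, a small bZIP factor induced by cytokines and stress, was at 4.34, 3.55, 2.68 and 2.54 CPM in the high group against 1.21, 0.609, 1.02 and 1.36 CPM in the low group, and its difference was 1.65 without and 1.66 with training as a term. Arc, an activity-regulated synaptic gene, overlapped at 121, 54.6, 116 and 126 CPM in the high group against 116, 90.4, 73.2 and 126 CPM in the low group. In Arc trained 1 stood apart below the 3 other high-gliosis libraries. Of 20 neuropeptide and activity effector genes, 2 were higher (Vip and Npy), beside 6.15% of all genes, and 3 were higher and 4 lower without trained 4; the neurotrophin Bdnf overlapped at -0.45. Of 12 neurogenesis genes, 2 were higher (Top2a and Draxin), and 5 were higher and 2 lower without trained 4; Top2a also marks any dividing cell.

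The transgene-related genes App, Mapt and Prnp were not higher in the high-gliosis group. App, on which reads of the human transgene can also fall, stood at 2352, 2251, 2260.2 and 2515 CPM in the high-gliosis and 2496, 2604, 2662 and 2695 CPM in the low-gliosis libraries, and all 8 lay above the highest control at 2008 CPM. Of these, trained 4 of the high-gliosis group just exceeded naive 2 of the low-gliosis group. Mapt was at 637, 660.5, 596 and 659 CPM in the high group against 645, 654, 594 and 636 CPM in the low group. Unlike App and Prnp, Mapt overlapped the controls in both groups, so its values cannot show the level of the tau transgene. Prnp, whose promoter drives the tau transgene, was at 1842, 1588, 1699 and 1998 CPM in the high group against 2231, 2079, 1961 and 1848 CPM in the low group. Controls had no more than 964 CPM of Prnp. Without trained 4, App and Prnp of the high-gliosis libraries lay below the low-gliosis range. App, Mapt and Prnp overlapped with it, with log2 differences of -0.16 ± 0.04, 0.01 ± 0.05 and -0.19 ± 0.09; no source used here states how reads of the human transgenes were assigned. Of 16 secretase and amyloid sorting genes, 2 were higher, the sheddase Adam17 at 27.9, 27.9, 24.6 and 17.99 CPM in the high group against 14.9, 14.4, 15.2 and 16.4 CPM in the low group and the BACE1 relative Bace2 at 6.70, 5.43, 4.89 and 4.84 CPM in the high group against 2.44, 1.85, 2.62 and 2.03 CPM in the low group. The other 14 of this list, Bace1 (-0.03) among them, overlapped.

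Of 15 p53 and arrest genes, 6 were higher without overlap; Cdkn1a, the cell cycle inhibitor p21, was at 30.8, 27.9, 25.7 and 13.5 CPM in the high-gliosis and 6.43, 5.68, 7.19 and 11.2 CPM in the low-gliosis libraries, and Fas, a death receptor, at 5.92, 7.18, 4.74 and 2.94 CPM in the high group against 1.35, 1.65, 1.26 and 1.68 CPM in the low group. Of 19 heat shock and stress genes, 5 were higher, led by Atf3 (1.83 ± 0.55), a factor induced by injury, and Hmox1 (1.32 ± 0.27), which degrades haem. Of 15 metallothionein and glucocorticoid genes, 3 were higher and 1 lower: the metal buffers Mt1 (0.79), Mt2 (0.94) and Mt3 (0.37), against Sult1a1 (-0.22). Glucocorticoid targets such as Fkbp5 (-0.39) and Sgk1 (0.05) overlapped. Of 15 Alzheimer risk orthologs, 7 were higher and 1 lower; Spi1, the master factor of microglia, was at 11.4, 11.4, 9.29 and 5.51 CPM in the high group against 4.78, 4.07, 4.94 and 3.55 CPM in the low group. Without trained 4 the higher genes numbered 10 of the p53, 6 of the stress, 4 of the metallothionein and 9 of the risk list. Mitochondrially encoded genes held 1 lower gene of 13, ATP8, and nuclear oxidative phosphorylation 1 of 20, Ndufs1. Markers of neighbouring tissue held 1 higher gene of 16, Rorb (0.42). Such counts lie near the shares over all genes, which were 5.57% lower and 6.15% higher.

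The 8 largest lower differences all fell on genes outside the lists. Rreb1, a zinc finger transcription factor, was at 30.4, 35.0, 47.6 and 63.7 CPM in the high-gliosis and 98.6, 98.1, 90.4 and 104 CPM in the low-gliosis libraries, and it overlapped the controls, whose lowest value was 51.8 CPM. Otof, known from hair cell synapses as a calcium sensor, was at 2.02, 2.47, 1.79 and 2.97 CPM in the high group against 3.78, 5.65, 7.04 and 4.77 CPM in the low group, and its high-gliosis values lay below all controls. Best3, Ankdd1a, Pla2g2f, Smyd1, Krt9 and Fbxl7 make up the rest, between -1.29 and -1.07 on the log2 scale. Each of these had at most 4.16 CPM in every high-gliosis library except Krt9, which reached 11.4 CPM.

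**Figure D4:**
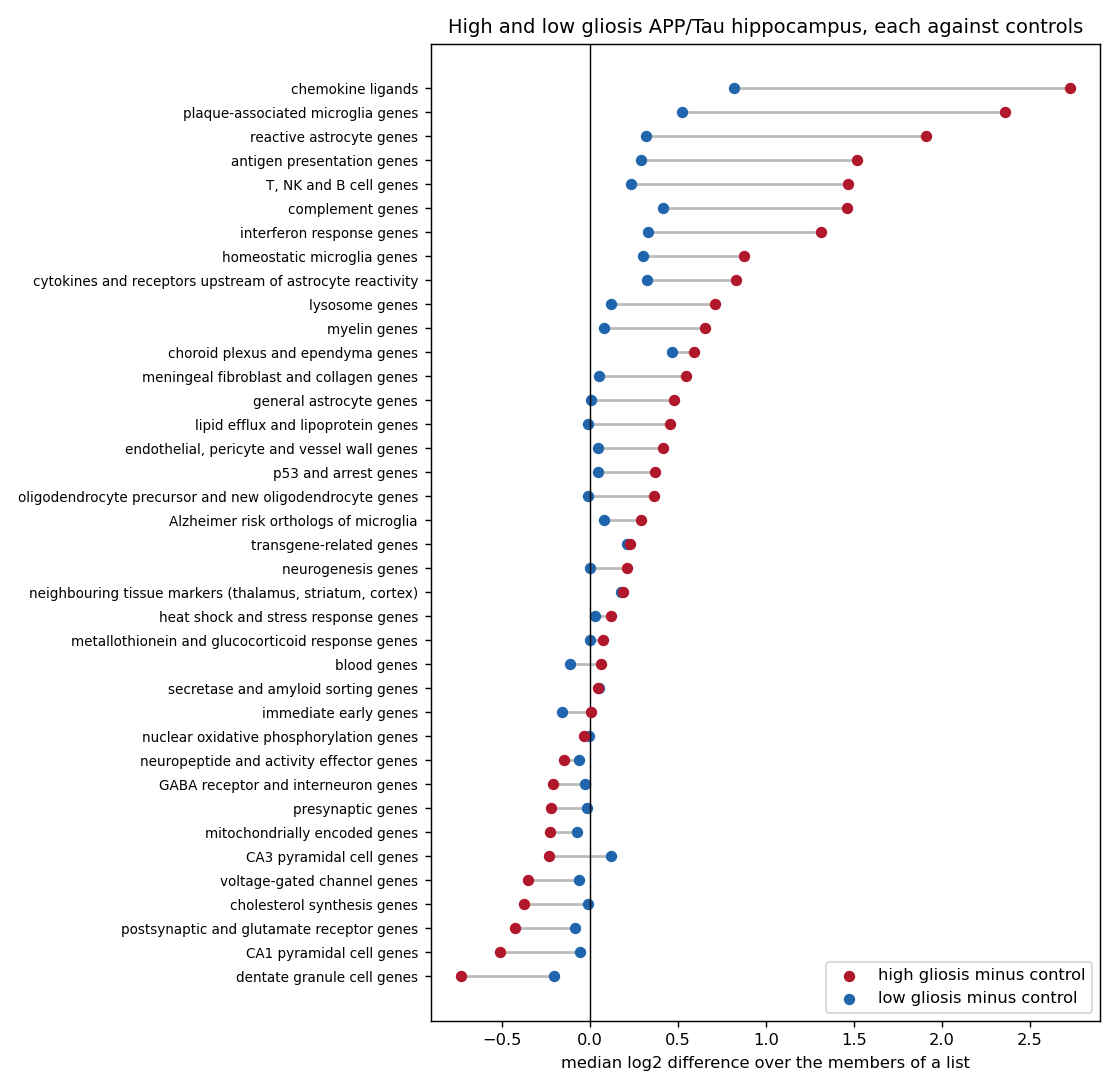
Median log2 difference from control hippocampi over the members of each of 38 lists, for the high-gliosis group (red) and the low-gliosis group (blue), with lists ordered by the high-gliosis value. Chemokine ligands lie at 2.73 in the high-gliosis and 0.82 in the low-gliosis group, and dentate granule cell genes at -0.73 in the high-gliosis and -0.21 in the low-gliosis group; both comparisons use the same 11 controls.

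The low-gliosis group lay above controls in part of the glial lists. Against controls, 8 of 28 plaque-associated microglia genes, 4 of 30 reactive astrocyte genes and 4 of 17 complement genes were higher without overlap in the low-gliosis libraries, beside a background of 0.57%. The medians over controls were 2.36 in the high-gliosis and 0.52 in the low-gliosis group for plaque-associated genes. For reactive astrocyte genes they were 1.91 in the high-gliosis and 0.32 in the low-gliosis group, and for complement genes 1.46 in the high-gliosis and 0.41 in the low-gliosis group. The highest low-gliosis median was that of chemokine ligands, at 0.82 with 3 of 20 higher without overlap. Choroid plexus and ependyma genes had 0.47 (0 of 13 higher) and interferon response genes 0.33 (1 of 24). Cytokines and receptors upstream of astrocyte reactivity had 0.33 (4 of 22), homeostatic microglia genes 0.30 (2 of 18) and antigen presentation genes 0.29 (0 of 16). T, NK and B cell genes had 0.23, transgene-related genes 0.21 (2 of 5 higher), neighbouring tissue markers 0.18 and dentate granule cell genes -0.21. Myelin, lysosome, postsynaptic and presynaptic genes of the low-gliosis group had medians over controls of 0.08, 0.12, -0.08 and -0.01.

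The basolateral amygdala (BLA) gave the only readout that the ranking had not used. For each of the 8 hippocampal libraries a BLA library has the same library number in its description, the same genotype and the same training, and the labels do not state that a number marks a mouse. Gm6969, chosen after seeing the data because its level falls into a high and a low class, fell into the same class in both tissues for 19 of 19 shared numbers, with 5 CPM as the boundary. BLA Gfap stood at 689, 1900, 1158 and 132 CPM of the total for the high-gliosis numbers and at 296, 97.1, 50.6 and 87.4 CPM for the low-gliosis numbers, beside 28.03 to 81.5 CPM in 10 BLA controls. The log2 difference was 2.62 and the exact permutation test (2-sided) over 70 splits gave p = 0.0571, where 0.0286 is the smallest p possible. Trained 4 is the high-gliosis number whose BLA value lay inside the low-gliosis range. Without it the difference was 3.40 and the exact permutation p was 0.0286, the smallest that 3 against 4 allows. That p follows from leaving out the only high-gliosis number inside the low-gliosis range, so it adds no support. Leaving out any other library gave an exact permutation p of 0.0571 to 0.114.

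Across 21681 genes in the BLA, edgeR's quasi-likelihood test called none higher (0%) and none lower (0%) at an adjusted p below 0.05, the smallest adjusted p being 0.282; 1850 genes had an unadjusted p below 0.05, 1083 higher and 767 lower. DESeq2 on the same libraries called 110 higher and 52 lower, and limma-voom none. Cst7 stood at 4.997, 7.87, 4.57 and 0.151 CPM for the high-gliosis numbers and 0.874, 0.203, 0.195 and 0.212 CPM for the low-gliosis numbers, a log2 fold change of 3.55 ± 0.93 (edgeR adjusted p = 0.432). Serpina3n was at 74.8, 125, 41.7 and 10.5 CPM for the high-gliosis numbers against 10.4, 16.7, 12.5 and 10.8 CPM for the low-gliosis numbers, and trained 4 again lay within the low-gliosis range. Osmr was at 6.22, 10.6, 9.56 and 3.15 CPM for the high-gliosis numbers against 3.03, 2.64, 2.32 and 2.74 CPM for the low-gliosis numbers, and H2-D1 at 49.9, 66.7, 43.0 and 30.6 CPM for the high-gliosis numbers against 31.8, 24.5, 27.5 and 20.7 CPM for the low-gliosis numbers. Osmr did not overlap in the BLA, and for H2-D1 trained 4 lay just below naive 2. P2ry12 overlapped, at 34.7, 31.0, 32.7 and 31.9 CPM for the high-gliosis numbers against 34.7, 34.5, 34.1 and 27.3 CPM for the low-gliosis numbers.

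Of the genes higher without overlap in the hippocampus, 1440 were tested in the BLA and 90.5% had a log2 fold change above 0 there; of the genes lower in the hippocampus, 1344 were tested and 12.8% were above 0, beside 50.2% of all BLA genes. If a number marks a mouse, these values come from the same animals, and the tissues are not independent samples. Median BLA log2 fold changes were 0.99 for plaque-associated microglia genes, 0.83 for antigen presentation, 0.78 for complement and 0.50 for reactive astrocyte genes. Myelin genes had a median of 0.12 in the BLA and 0.57 in the hippocampus. Dentate granule cell genes had 0.13 in the BLA and -0.58 in the hippocampus. Their marker Prox1 ran at only 13.1 to 19.2 CPM in the BLA, against 66.7 to 144 CPM in the hippocampus. The dentate list is thus not a like measure of granule cells in both tissues. Differences between tissues were not tested.

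The 5 genes with the smallest p in the BLA were Gm10156, Casp9, Ighg2c, Muc3a and Per3, and Casp9 fell into 2 classes of level. Casp9, the initiator caspase of the mitochondrial death pathway, had an edgeR log2 fold change of 0.74 ± 0.10 (adjusted p = 0.287) in the BLA. In the hippocampus it stood at 39.3, 38.0, 43.3 and 46.3 CPM in the high-gliosis and 27.9, 27.2, 26.8 and 25.2 CPM in the low-gliosis libraries, and at 24.8 CPM in the middle library. In most lists trained 4 lay nearer to the low-gliosis mean, yet here it was the highest of the APP/Tau libraries. Of the 11 controls, 9 lay between 25.2 and 28.9 CPM and 2 at 43.1 and 48.1 CPM, and the Gfap of those 2, at 315 and 449 CPM after TMM scaling, was in the control range. In the BLA, scaled over all 19 libraries, the high-gliosis numbers had 38.1, 33.4, 43.9 and 35.0 CPM and the low-gliosis numbers 24.8, 20.9, 21.1 and 23.0 CPM.

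Nnt, a mitochondrial transhydrogenase that C57BL/6J mice carry as a partial deletion and other C57BL/6 substrains carry whole, was chosen after its values were seen because it divided the 8 libraries in the same way. It stood at 30.7, 29.3, 32.1 and 30.0 CPM in the high-gliosis and 19.3, 16.2, 18.3 and 19.1 CPM in the low-gliosis libraries, with the middle library at 18.996 CPM. Of the 11 controls, 6 lay at 18.9 to 20.8 CPM and 5 at 25.9 to 34.6 CPM. In the BLA the high-gliosis numbers had 23.98, 29.0, 31.0 and 26.7 CPM and the low-gliosis numbers 19.4, 17.5, 15.5 and 20.7 CPM. The classes were less clear among BLA controls. Control naive 1, at 25.9 CPM in the hippocampus, had 18.8 CPM in the BLA. Control trained 2 at 20.9 CPM and control trained 5 at 23.0 CPM lay close together there. In the hippocampus all 4 high-gliosis libraries were in the upper class of Casp9 and Nnt and all 4 low-gliosis libraries in the lower class. Controls of ordinary Gfap occurred in both classes. Gm6969 and Gabra2, looked at for the same reason, did not divide the groups: Gm6969 stood at 0.921, 0.887, 1.31 and 0.842 CPM in the high-gliosis and 10.3, 9.33, 1.25 and 9.42 CPM in the low-gliosis libraries. Gabra2, a GABA receptor subunit, stood at 212, 169, 236 and 327 CPM in the high-gliosis and 201, 112, 195 and 105 CPM in the low-gliosis libraries, and the groups overlapped. In the BLA neither gene overlapped. Gabra2 ran there from 257 to 292 CPM for the high-gliosis and from 106 to 190 CPM for the low-gliosis numbers. Gm6969 ran from 2.12 to 2.39 CPM for the high-gliosis and from 2.82 to 12.9 CPM for the low-gliosis numbers. The labels give no genotype at these loci, and the part of inherited background in the gliosis groups was not tested.

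**Figure D5:**
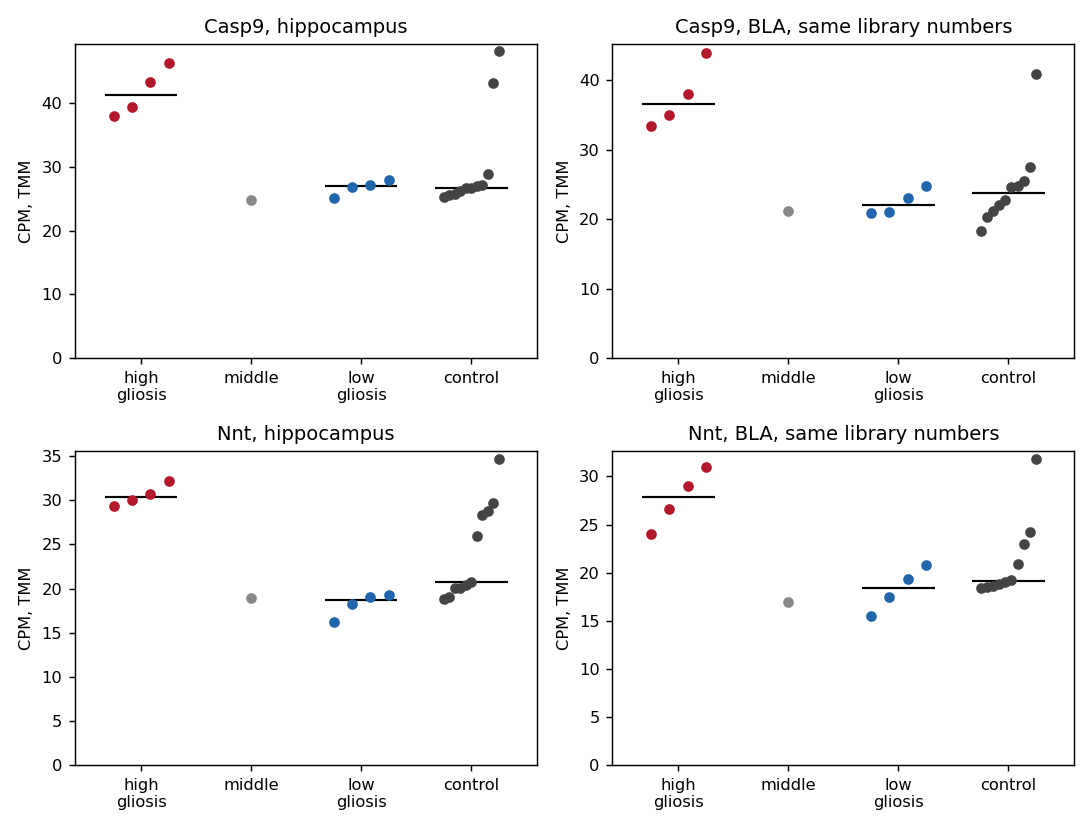
CPM after TMM scaling of Casp9 (top) and Nnt (bottom) in each hippocampal library (left) and in the BLA library of the same number (right), by gliosis group of the hippocampus; points are libraries, bars are medians and axes start at 0. For Casp9 the high-gliosis libraries lie at 38.0 to 46.3 CPM in the hippocampus, the low-gliosis libraries at 25.2 to 27.9 CPM, and 2 of 11 controls lie beside the high-gliosis ones.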

How the data were processed

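Input RNA of 20 hippocampi and 19 BLA was sequenced as poly(A) libraries from paired short reads, per the labels' protocols. The deposited values are whole-number counts per gene symbol, with 1 column per library and 50559 genes. Per the submitters' processing notes, reads were trimmed with Trimmomatic 0.39 and the genome build was mm39; no source used here names the aligner, the counting tool, the annotation or the strand setting. Column totals exceed the number of reads that the labels state per sample, so that a count may not be 1 read pair. Genes that overlap, antisense genes and near-identical copies are uncertain for the same reason.

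Groups came from the share of Gfap in each column total. Genes were filtered with filterByExpr (minimum count 10, minimum total 15), scaled by TMM in edgeR 4.0.16 under R 4.3.3, and compared as mean log2 CPM with a prior count of 2. In the hippocampus no test of gene levels was run between the groups. In the BLA, edgeR's quasi-likelihood test with Benjamini-Hochberg adjustment compared the 8 libraries that carry the same library numbers, with DESeq2 1.42.0 and voom in limma 3.58.1 as alternatives; the scripts were tested on simulated data. Libraries are named by treatment and replicate number in the hippocampal labels. Whether samples of a group come from separate litters is not stated, and p-values measure the spread between these samples.

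Named genes were 29 fixed genes, the 8 largest differences in each direction among named genes without overlap and at least 1 CPM on average, up to 3 members per list, and in the BLA the 5 smallest p. Further list members are named as examples, chosen after their values were seen, as are Nnt, Gm6969 and Gabra2. The members, the lists and the tests were chosen with earlier results of these data known. Some members of the lists are counted but not reported here by name.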

Additional observations from a re-analysis of the deposited data

Results flagged for a closer look

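In 11 of 248 sets of 4 libraries, made of each group of each named gene, 1 library stood apart from the other 3 by more of the whole range than Dixon's critical value at the 95% level; chance alone gives about 1 in 20 such sets. In the high-gliosis group, Arc was 54.6 CPM in trained 1, below the other 3. In the same group trained 4 was the low library for Clu, the lipoprotein clusterin, at 942 CPM, and for the T-cell gene Cd3g, at 0.0347 CPM.

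In the low-gliosis group naive 4 was the low library for calbindin (Calb1), at 89.0 CPM, and for the interferon genes Ifit3, at 4.32 CPM, and Ifitm3, at 5.60 CPM. Naive 2 was the low library for the myelin lipid enzyme Fa2h, at 31.1 CPM, and for S100a8, at 0 CPM, and it held all of the group's Atp6v0d2, at 0.0361 CPM. Naive 3 was low for Lcn2, at 0.0725 CPM, and high for the axon guidance gene Draxin, at 0.762 CPM.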

How the results depend on the processing

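The 105 named genes were chosen for not overlapping, so that they keep their sign by construction wherever libraries are only left out; they also kept it under the other alternatives, where 92 were tested under the 1 CPM filter. Their differences moved by more than the spread between libraries for 39 genes with naive libraries alone, 14 with trained libraries alone and 1 with a prior count of 0.5. Scaling by RLE in place of TMM moved the median over all genes to 0.00129, against -0.00665, and shared 1576 higher and 1361 lower genes. The counts depended on which libraries entered, since fewer libraries overlap less often. With the 3 highest against the 3 lowest, 4241 genes were higher and 4445 lower, 1263 and 480 of them by at least 2-fold; against controls the high group then had 3136 higher and 2920 lower, and the low group 118 lower. With the middle library in the high group there were 924 higher and 673 lower genes, 262 and 56 at least 2-fold, and 340 lower against controls. With it in the low group there were 1053 higher genes, 314 higher at least 2-fold and 76 lower at least 2-fold. Naive libraries alone (1 against 3) gave 8674 higher and 9044 lower, 2254 and 1607 at least 2-fold; trained libraries alone (3 against 1) gave 6683 and 6767, 1577 and 821. A mean of at least 1 CPM left 259 higher and 17 lower genes of at least 2-fold.

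Leaving out each library in turn gave 1803 to 3849 higher and 1670 to 3997 lower genes, 499 to 1089 and 169 to 368 at least 2-fold, 1264 to 3136 higher and 701 to 2920 lower for the high group against controls, and 147 to 489 higher and 53 to 346 lower for the low group against controls. Trained 4 gave the highest high-group counts. Lower genes of at least 2-fold were 241 without trained 3, 212 without naive 2, 206 without naive 4, 206 without naive 3 and 230 without trained 2. The low group against controls had 489 higher and 346 lower without trained 2, 266 and 105 without naive 4, 118 lower without naive 2 and 101 lower without naive 3.

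In the BLA, DESeq2 called 110 genes higher and 52 lower, where edgeR and voom called 0; leaving out each library gave 0 to 1 higher and 0 to 4 lower (4 lower without trained 1, 1 higher without naive 4, 1 of each without naive 3). DESeq2 called BLA Gfap (adjusted p = 0.0455) and Casp9 (adjusted p = 4.02e-06). The edgeR test called neither, with adjusted p of 0.432 for Gfap and 0.287 for Casp9. The log2 difference of BLA Gfap ran from 2.13 to 3.40, with exact permutation p from 0.0286 to 0.114. Without trained 4 it was 3.40 (p = 0.0286 by the exact permutation test), and p was 0.0571 to 0.114 without any other library. The value without trained 4 follows from leaving out the only high-gliosis number inside the low-gliosis range. The replicate number of the titles as a block gave 0 higher and 0 lower genes; different mice share only a number. Differences in counts between tools had causes that were not tested, and genes below about 1 CPM rest on few counts in these libraries.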
